A study of Mus musculus with 12 samples.

Results

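The enzymes and helper protein described here build and break down leukotrienes, hydroxylated fatty acids and prostaglandins. They are the 10 genes Alox5, Alox5ap, Alox12, Alox15, Lta4h, Ltc4s, Ptgs1, Ptgs2, Ptges and Hpgd, taken by symbol from 22630 gene rows measured in every tumor. All 10 passed the filter on low counts and were among the 17561 genes tested. They were chosen by name as a pathway after measured values of these same tumors had been seen. Alox15 was already known to be higher with dox, so its differences are given as values with their errors and no test, and tests are counted over the other 9 genes. Which values led to the other 9 is not recorded, so their adjusted p-values place each gene in the whole table and are not independent support.

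RNA was sequenced from 12 subcutaneous tumors grown from KCip53-1, a mouse pancreatic cancer cell line sorted from the primary tumor of a single animal. The line carries Ptf1a-Cre, an rtTa transactivator and a p53 R270H transgene that doxycycline (dox) switches on, and all groups shared this genotype. By the study's description the line had lost wild-type p53, and a few cells seemed to escape the control of the transgene after dox was withdrawn. All tumors grew from 500000 cells injected in Matrigel under the skin of immunodeficient NSG mice of 8 to 10 weeks.

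The 4 no-dox tumors never received dox, and the 4 plus-dox tumors had 0.2 g/l dox in 5% sucrose water for 36 days. The 4 off-dox tumors had the same dox for 33 days and then 3 days without it by the sample labels, whereas the study's text describes withdrawal once tumors could be felt. Each mouse carried 2 tumors and the sources used here do not tie tumors to mice, so the tests below treat every tumor as independent, and p-values would be too small where 2 tumors of 1 group came from the same animal. RNA came from whole, unsorted tumors that include host cells, and fewer cells of a type cannot be told apart from less RNA per cell. Counts on genes summed to 19845923 to 33137609 per tumor. The share of mapped reads on genes was 88.4% to 89.4% (no-dox), 82.2% to 87.1% (plus-dox) and 81.1% to 85.8% (off-dox), so it separated every no-dox tumor from the rest. Trp53, the gene the transgene is made from, was at 47.7 ± 7.27 (no-dox), 48.5 ± 6.44 (plus-dox) and 44.0 ± 1.72 RPKM (off-dox, all with the SD of 4 tumors), so its level did not mark the induced groups. The sources used here do not say whether reads of the transgene were counted in this row. By the study's staining, dsRed, a reporter expressed with the transgene, was absent from no-dox tumors and present in part of the cells of plus-dox tumors.

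In this pathway phospholipases release arachidonic acid from membranes, and lipoxygenases or cyclooxygenases oxidise it. Alox5 with its helper Alox5ap makes leukotriene A4, which Lta4h turns into the neutrophil attractant leukotriene B4 and Ltc4s into the cysteinyl leukotrienes. The cyclooxygenases Ptgs1 and Ptgs2 make prostaglandin H2, Ptges makes prostaglandin E2 from it, and Hpgd inactivates prostaglandin E2. Pancreatic tumors are known for expressing the inducible cyclooxygenase and for a stroma rich in fibroblasts and macrophages.

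Ptgs1 and Ptgs2 do the same chemistry, yet in plus-dox tumor 2 Ptgs2 had its highest and Ptgs1 its lowest level of the 12 tumors. Their start regions are shown for that contrast, as 250 bases before and 50 after the annotated start in RefSeq on GRCm38.p6. This is a newer build than the mm9 coordinates of the deposited files, and the sequences carry no measurement. Capitals mark matches to the motifs searched on both strands, which were the CRE core CGTCA, the E-box CACGTG, the GC box GGGCGG and the TATA box TATAAA. Ptgs2 lies at chr1:150099781-150100080 (+) and Ptgs1 at chr2:36230176-36230475 (+).
Ptgs2: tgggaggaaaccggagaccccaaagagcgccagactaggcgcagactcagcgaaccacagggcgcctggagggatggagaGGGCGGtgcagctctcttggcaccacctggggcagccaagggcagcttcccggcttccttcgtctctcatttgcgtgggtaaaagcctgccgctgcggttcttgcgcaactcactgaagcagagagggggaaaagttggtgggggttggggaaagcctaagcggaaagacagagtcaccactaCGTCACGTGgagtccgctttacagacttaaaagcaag
Ptgs1: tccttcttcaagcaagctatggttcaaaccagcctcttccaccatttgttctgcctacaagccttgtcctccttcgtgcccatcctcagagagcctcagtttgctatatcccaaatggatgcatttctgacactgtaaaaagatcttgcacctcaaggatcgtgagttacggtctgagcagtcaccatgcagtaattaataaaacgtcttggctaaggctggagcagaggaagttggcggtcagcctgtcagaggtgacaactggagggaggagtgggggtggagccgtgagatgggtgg
In the Ptgs2 window a GC box began at base 81, a CRE core at base 264 and an E-box at base 267, the last pair sharing 2 letters. The Ptgs1 window held none of the 4 motifs. Of all 32851 windows in the table, 20.8% held the CRE core, 7.15% the E-box, 35.7% the GC box and 13.6% the TATA box. A match is a description of letters and not a site in use. Alox5, Alox12, Hpgd and Ptges also held a GC box, and the E-box and CRE core were found only in Ptgs2 among the 8 genes with an entry. The genes without an entry were Alox5ap and Alox15.

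Values are sums over all exons of a gene, and 0 of the 10 overlap another gene row. The 10 genes spanned a wide range of levels, given here as RPKM, which scales reads to exon length and to all mapped reads and can be compared between genes. Alox5ap was highest with 44.4 ± 9.95 RPKM over the 12 tumors (SD), followed by Lta4h with 25.9 ± 2.63 and Ptgs1 with 18.5 ± 4.81. Both of the first neighbours in this order, Alox5ap above Lta4h and Lta4h above Ptgs1, kept it in 12 of 12 tumors. Ltc4s (8.42 ± 2.34), Ptgs2 (8.28 ± 5.62), Alox5 (6.79 ± 4.29) and Ptges (4.40 ± 1.43) followed, and these neighbours did not differ beyond their spread. Ltc4s exceeded Ptgs2 in 7 of 12 tumors, Ptgs2 exceeded Alox5 in 8, and Alox5 exceeded Ptges in 9. Hpgd had 1.18 ± 0.668 RPKM, below Ptges in 12 of 12 tumors. Alox15 (0.227 ± 0.192) and Alox12 (0.141 ± 0.0631) closed the order and overlapped each other. The helper protein and the leukotriene A4 hydrolase were therefore more abundant at the RNA level than the lipoxygenase they work with, Alox5.

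**Figure D1:**
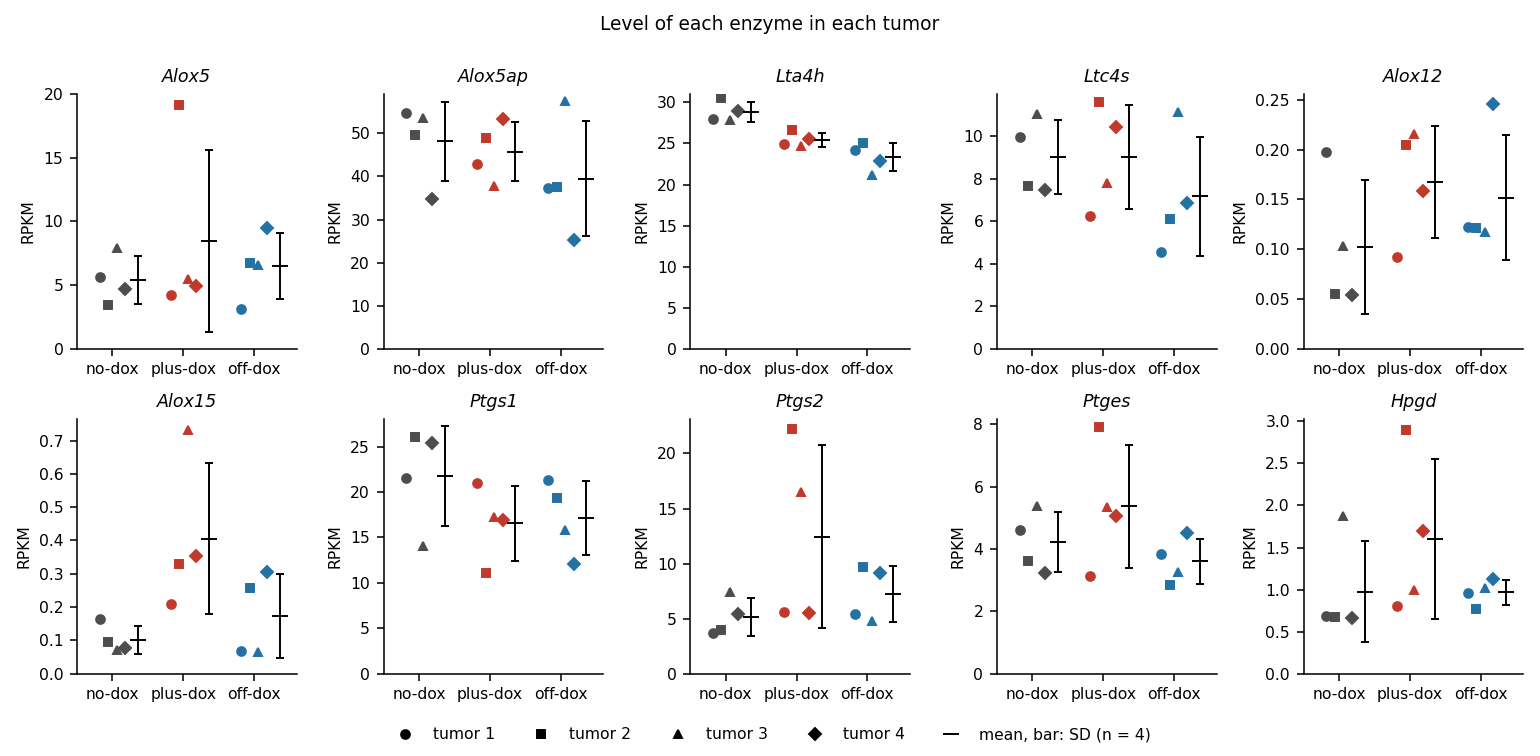
RPKM (vertical axes, each from 0) of the 10 genes in the no-dox (grey), plus-dox (red) and off-dox (blue) tumors, 1 symbol per tumor, with the mean and SD of the 4 tumors beside them. Plus-dox tumor 2 (square) is the highest point for Alox5, Ltc4s, Ptgs2, Ptges and Hpgd and the lowest for Ptgs1.

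Genes also differed in how much they varied between tumors. Lta4h was among the steadiest genes, with an SD of 0.14 in log2 CPM (counts on genes scaled to library size) over the 12 tumors, and only 10.5% of the 14548 expressed genes varied less. At the other end Alox15 had an SD of 1.01, Ptgs2 of 0.83 and Alox5 of 0.72, against a median of 0.27 over expressed genes. A single tumor accounted for many of the extremes. Plus-dox tumor 2 was the highest of the 12 for 5 of the 10 genes and the lowest for Ptgs1. Without it and off-dox tumor 4, which earlier work on these data had set apart, the SD of Alox5 was 0.44 and that of Ptgs2 0.68.

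Of the 9 genes other than Alox15, 0 were called in any comparison. A call needed a mean over 0.25 RPKM, more than a 1.5-fold change and an adjusted p under 0.1 in edgeR's quasi-likelihood test. Of all 17561 genes 0% were called for plus-dox against no-dox, 1.34% for off-dox against no-dox and 0% for off-dox against plus-dox. At an unadjusted p under 0.05 the count of the 9 was 1 (Ptgs2), 1 (Lta4h) and 0, in the same order. Of all genes 2400 (13.7%), 3586 (20.4%) and 537 (3.06%) were under it, so the 9 did not stand out. DESeq2 also called 0 of the 9 in each comparison. The mean of Alox12 was under the RPKM limit in every comparison, so it could not be called. The median log2 fold change of the 10 was 0.51 for plus-dox against no-dox, with 7 above 0, and 0.37 without Alox15. Beside it stood 0.01 over all genes, of which 51.4% were above 0. For off-dox against no-dox the 10 had a median of -0.09, with 5 above 0, beside 0.007 over all genes (50.7% above 0). For off-dox against plus-dox it was -0.34, with 1 above 0, beside -0.0005 over all genes, of which 49.8% were above 0. Without plus-dox tumor 2 and off-dox tumor 4, Alox5 (0.18) and Alox5ap (0.0044) were above 0 there as well. In that last comparison the adjusted p was 1 for each of the 9 genes other than Alox15. All of these comparisons share groups of tumors, so they are not separate evidence.

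**Figure D2:**
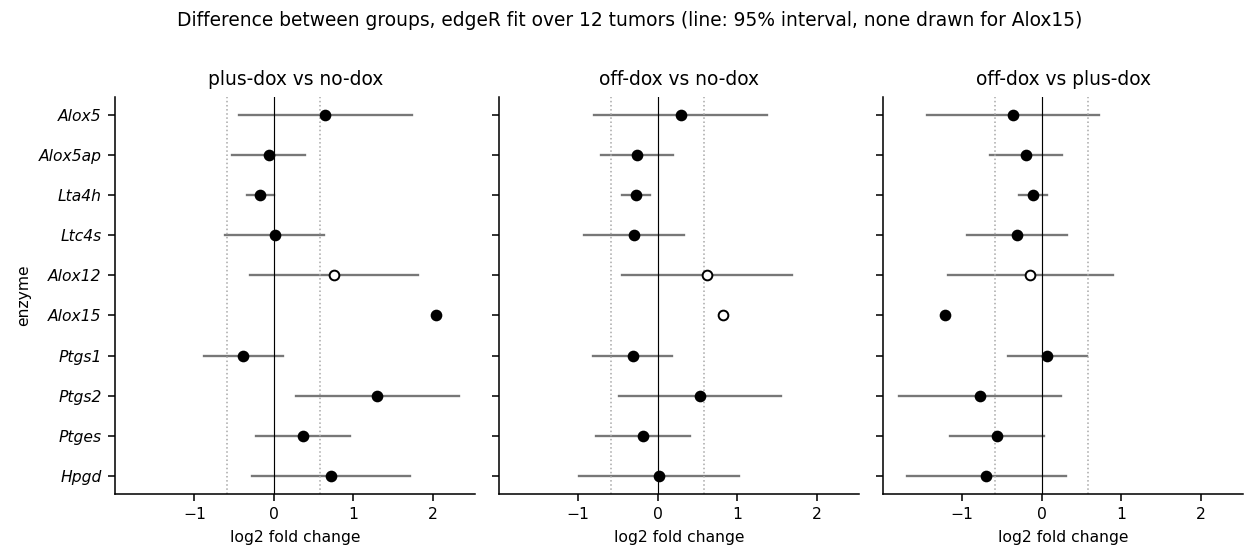
Log2 fold change (horizontal axis) of each gene in the 3 comparisons from the edgeR fit, with its 95% interval as a line, none drawn for Alox15, and dotted lines at 1.5-fold. Open circles are genes whose mean was under 0.25 RPKM in the tumors compared; Ptgs2 is at 1.30 and Lta4h at -0.17 for plus-dox against no-dox.

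Ptgs2, the inducible cyclooxygenase, showed the largest difference for plus-dox against no-dox apart from Alox15. The gene lies on chromosome 1 of mm9 (151947254 to 151955142, plus strand). Its no-dox tumors had 3.68, 3.97, 7.45 and 5.42 RPKM, its plus-dox tumors 5.58, 22.2, 16.5 and 5.52, and its off-dox tumors 5.42, 9.72, 4.78 and 9.15. Plus-dox tumors 2 and 3 stood above all others, while plus-dox tumors 1 and 4 lay within the no-dox range. On the log2 scale the plus-dox mean was higher by 1.30 (SE 0.47, 95% interval 0.27 to 2.33), which did not pass adjustment over all genes (edgeR, adjusted p = 0.33, n = 4). Each of the 4 plus-dox tumors exceeded 3 of the 4 no-dox tumors. The off-dox difference from no-dox was 0.53 (SE 0.47, adjusted p = 0.54) and that from plus-dox -0.77 (SE 0.47, adjusted p = 1). Leaving out 1 tumor at a time, the plus-dox value ran from 0.87 to 1.56.

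Ptgs1, the cyclooxygenase that most tissues express without a stimulus, had the higher level of the pair in 11 of 12 tumors. It lies on chromosome 2 (36085946 to 36107789, plus strand). Its level was at 21.6, 26.0, 14.1 and 25.3 RPKM in no-dox tumors, 21.0, 11.1, 17.3 and 16.9 in plus-dox tumors and 21.3, 19.3, 15.8 and 12.1 in off-dox tumors. The groups overlapped, with a log2 difference of -0.38 (SE 0.23, edgeR, adjusted p = 0.45) for plus-dox and -0.32 (SE 0.23, adjusted p = 0.45) for off-dox against no-dox. The ratio of Ptgs2 to Ptgs1 was 0.171, 0.153, 0.529 and 0.214 in no-dox tumors, 0.266, 2.01, 0.956 and 0.327 in plus-dox tumors and 0.254, 0.503, 0.302 and 0.755 in off-dox tumors. In 1 of 12 tumors, plus-dox tumor 2, the inducible form exceeded the other, and in plus-dox tumor 3 the pair was close to equal.

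**Figure D3:**
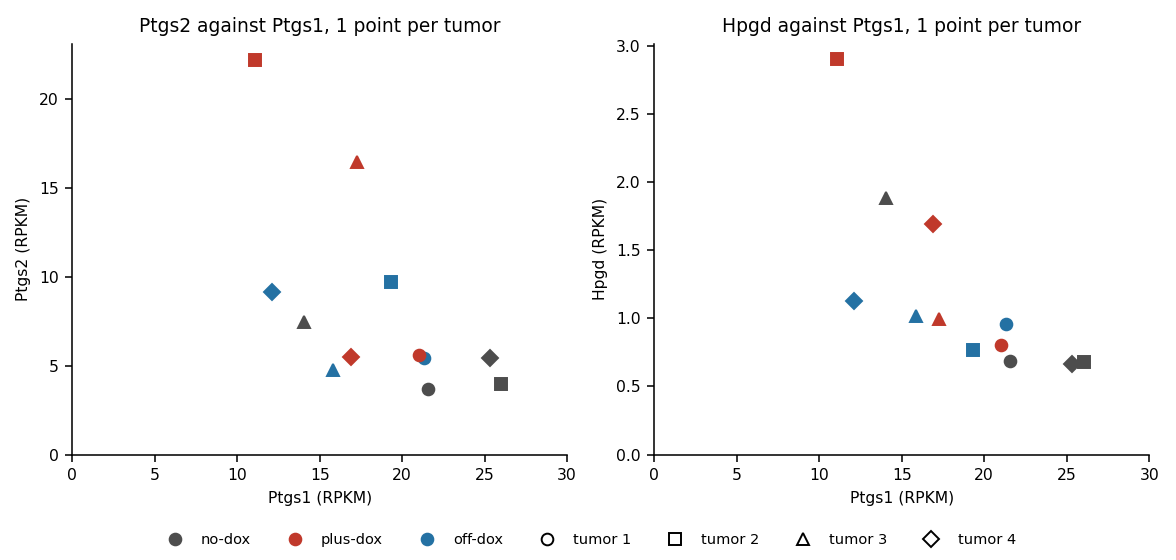
Ptgs2 (left) and Hpgd (right), both in RPKM on vertical axes from 0, against Ptgs1 in RPKM, 1 point per tumor, coloured by group. Hpgd is highest in plus-dox tumor 2, where Ptgs1 is lowest (11.1 RPKM), and it is at 0.676 and 0.665 in the 2 tumors with most Ptgs1.

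The synthase and the breakdown enzyme of prostaglandin E2 varied together. Ptges lies on chromosome 2 (30744991 to 30758817, minus strand) and Hpgd on chromosome 8 (58773349 to 58799843, plus strand). Ptges was at 4.62, 3.63, 5.39 and 3.25 RPKM in no-dox tumors, 3.13, 7.92, 5.37 and 5.07 in plus-dox tumors and 3.85, 2.85, 3.27 and 4.51 in off-dox tumors. Hpgd was at 0.686, 0.676, 1.88 and 0.665 RPKM in no-dox tumors, 0.804, 2.90, 0.993 and 1.69 in plus-dox tumors and 0.960, 0.770, 1.02 and 1.13 in off-dox tumors. Neither gene separated any pair of groups, and both were highest in plus-dox tumor 2. For plus-dox against no-dox the log2 difference was 0.37 for Ptges (SE 0.27, edgeR, adjusted p = 0.54) and 0.71 for Hpgd (SE 0.46, adjusted p = 0.48). Against plus-dox, the off-dox tumors had a log2 difference of -0.56 for Ptges (SE 0.27, 95% interval -1.15 to 0.04, adjusted p = 1) and of -0.70 for Hpgd (SE 0.46, adjusted p = 1). The ratio of Ptges to Hpgd kept to a range of 2.73 to 6.73 over the 12 tumors, with medians of 5.13 in no-dox tumors, 3.44 in plus-dox tumors and 3.85 in off-dox tumors.

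On the leukotriene side the hydrolase Lta4h was the only gene besides Alox15 with groups that did not overlap. It lies on chromosome 10 (92916141 to 92947641, plus strand). Its level was at 27.9, 30.6, 27.9 and 28.9 RPKM in no-dox tumors, 24.9, 26.6, 24.6 and 25.6 in plus-dox tumors and 24.2, 25.1, 21.2 and 22.9 in off-dox tumors. Every no-dox tumor lay above every plus-dox and every off-dox tumor, though the steps were small. The log2 difference was -0.17 for plus-dox (SE 0.08, 95% interval -0.34 to 0.01, edgeR, adjusted p = 0.38) and -0.27 for off-dox against no-dox (SE 0.08, 95% interval -0.45 to -0.10, adjusted p = 0.11), and neither was called. For off-dox against no-dox DESeq2 gave an adjusted p of 0.035 with moderated fold changes and 0.033 without. It was not called there because the change stayed under 1.5-fold. In RPKM the plus-dox tumors were lower without overlap for 1 of the 10 genes, Lta4h, as for 3.46% of all genes, and the off-dox tumors for 1 of the 10, as for 6.4%. Higher without overlap were 1 of the 10 in plus-dox, which was Alox15, the gene already known for this difference, beside 4.3% of all genes, and 0 of the 10 in off-dox against no-dox, beside 4.99%. Between off-dox and plus-dox 0 of the 10 separated in either direction, beside 0.552% of all genes higher and 0.934% lower in off-dox. RPKM divides by all mapped reads, of which a larger share fell on genes in no-dox tumors. In log2 CPM, which divides by reads on genes with TMM factors, the no-dox and plus-dox values of Lta4h overlapped, while no-dox and off-dox still did not.

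Lta4h also moved with epithelial markers. The summed RPKM of 8 simple epithelium markers, all 8 expressed and led by the keratin Krt18 (mean 685 RPKM), ran from 2317 to 3112 (no-dox), 1365 to 2044 (plus-dox) and 1073 to 2673 (off-dox). Lta4h was highest in no-dox tumor 2, where the sum was 3112, and lowest in off-dox tumor 3, where it was 1073. Off-dox tumor 1 did not follow this. Its sum of 2673 was above those of no-dox tumors 1 (2317) and 3 (2503), while its Lta4h of 24.2 RPKM was below every no-dox tumor. Over the 12 tumors r with this sum was 0.75, and 0.86 in the 10 tumors left without plus-dox tumor 2 and off-dox tumor 4, as a description of points that share libraries and groups. Skeletal muscle markers, 7 of 7 expressed and none at 0, summed to 10.4 to 179 (no-dox), 145 to 447 (plus-dox) and 12.1 to 1236 RPKM (off-dox), with the 1236 in off-dox tumor 3, where Lta4h was lowest. Against Lta4h this muscle sum had r = -0.49 over the 12 tumors and -0.79 over the 10, and the sum of neutrophil markers had -0.43 and -0.75. The part of these cell types in the Lta4h difference was not tested.

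Alox5, the enzyme that starts leukotriene synthesis, lies on chromosome 6 (116360089 to 116411196, minus strand). It had 5.61, 3.48, 7.94 and 4.72 RPKM in no-dox tumors, 4.19, 19.1, 5.47 and 4.97 in plus-dox tumors and 3.13, 6.73, 6.59 and 9.51 in off-dox tumors. Apart from plus-dox tumor 2, the plus-dox tumors lay within the no-dox range. The log2 difference for plus-dox against no-dox was 0.65 (SE 0.50, edgeR, adjusted p = 0.55), and without plus-dox tumor 2 it was -0.15. For off-dox against no-dox it was 0.29 (SE 0.50, adjusted p = 0.77). Its helper Alox5ap did not share these highs, with 49.0 RPKM in plus-dox tumor 2, and the 2 genes had r = 0.03 over the 12 tumors. Alox5ap exceeded Alox5 by 2.56 to 14.2 times in RPKM.

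Alox5ap lies on chromosome 5 (150076634 to 150099623, plus strand). It had 54.7, 49.5, 53.6 and 34.7 RPKM in no-dox tumors, 42.8, 49.0, 37.8 and 53.2 in plus-dox tumors and 37.4, 37.5, 57.5 and 25.3 in off-dox tumors, and all groups overlapped. The log2 difference was -0.06 for plus-dox (SE 0.21, edgeR, adjusted p = 0.90) and -0.26 for off-dox against no-dox (SE 0.21, adjusted p = 0.50). Its highest and lowest tumors, off-dox tumors 3 and 4, were also those with the most and the least macrophage marker RNA. The summed RPKM of the macrophage markers, 8 of 9 listed found in the table and all 8 expressed, was 1290 and 764 there. This sum ran from 794 to 1103 (no-dox), 814 to 1022 (plus-dox) and 764 to 1290 RPKM (off-dox), and r with Alox5ap was 0.79 over the 12 tumors and 0.75 over the 10. Platelet markers, 6 of 6 found and 4 of those expressed, also had their highest and lowest sums in off-dox tumors 3 and 4, 105 and 39.1 RPKM. Most of this sum was the RNA of 1 gene, Pf4 (mean 63.1 RPKM), so platelets are not shown by it as a separate source. The r of this platelet sum with Alox5ap was 0.66 over the 12 and 0.49 over the 10. Skeletal muscle markers had 0.60 and 0.37, mast cell markers 0.59 and 0.48, and adipocyte markers 0.40 and 0.67. The part of any of these cell types in the Alox5ap values was not tested.

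Ltc4s, which makes leukotriene C4, lies on chromosome 11 (50049974 to 50051973, minus strand) and was at 9.98, 7.65, 11.04 and 7.46 RPKM in no-dox tumors, 6.27, 11.6, 7.79 and 10.5 in plus-dox tumors and 4.57, 6.10, 11.2 and 6.88 in off-dox tumors. The ranges of all 3 groups overlapped. Its plus-dox and no-dox means were 9.04 ± 2.45 and 9.04 ± 1.76 RPKM, with a log2 difference of 0.01 (SE 0.29, 95% interval -0.62 to 0.63, edgeR, adjusted p = 0.99). Ltc4s followed Alox5ap, a relative of the same membrane protein family, with r = 0.67 over the 12 tumors and 0.81 over the 10.

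Alox12 and Alox15, lipoxygenases that oxidise arachidonic acid at other carbons than Alox5, were barely expressed and their rows rest on few reads. The genes lie near each other on chromosome 11 of mm9, Alox12 from 70054957 to 70068843 and Alox15 from 70157649 to 70165533, both on the minus strand, and how reads that map to several lipoxygenase genes were treated is not given in the sources used here. Alox15 had 0.164, 0.0963, 0.0720 and 0.0782 RPKM in no-dox tumors, 0.208, 0.329, 0.731 and 0.352 in plus-dox tumors and 0.0675, 0.257, 0.0644 and 0.305 in off-dox tumors. Behind these stood expected counts of 13.4, 7, 5 and 7 in no-dox tumors, 12, 26, 64.8 and 21.6 in plus-dox tumors and 4, 15, 4 and 22.1 in off-dox tumors. All plus-dox tumors were above all no-dox tumors, and the off-dox tumors fell into a low and a high pair. The log2 fold change in the fit was 2.03 (SE 0.59) for plus-dox and 0.82 (SE 0.60) for off-dox against no-dox, and -1.21 (SE 0.57) for off-dox against plus-dox. DESeq2 with moderated fold changes gave 0.80 for the first of these. At its highest, in plus-dox tumor 3, Alox15 made up 11.4% of the summed RPKM of Alox5, Alox12 and Alox15, and in no-dox tumors it made up 0.887% to 2.74%.

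Cell types known to carry Alox15 were looked at beside it. Eosinophil markers, 6 of 7 found and 2 of those expressed, summed to at most 4.19 RPKM in any tumor, with Prg3 at 0 in all 12. Resident body-cavity macrophage markers (4 of 4 expressed) summed to 16.3 to 20.7 (no-dox), 18.6 to 25.8 (plus-dox) and 10.4 to 16.2 RPKM (off-dox). Gata6 led this sum with a mean of 10.0 RPKM. In whole tumors its RNA cannot be tied to a cell type, so the sum does not show that such macrophages were present. Over the 12 tumors and the 10, r with Alox15 was 0.30 and 0.09 for the eosinophil sum and 0.26 and 0.57 for the body-cavity sum. Lists not picked for Alox15 had 0.60 and 0.64 (fibroblast), 0.55 and 0.65 (endothelial) and -0.49 and -0.45 (macrophage). The part of any cell type in the Alox15 difference was not tested. Alox12 had 0.197, 0.0555, 0.103 and 0.0541 RPKM in no-dox tumors, 0.0919, 0.204, 0.216 and 0.158 in plus-dox tumors and 0.123, 0.122, 0.117 and 0.245 in off-dox tumors. Its groups overlapped, its highest plus-dox tumor had 23.7 expected counts, and at this depth the log2 difference of 0.76 for plus-dox against no-dox came with a 95% interval of -0.30 to 1.81 (edgeR, adjusted p = 0.48).

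Several of the genes varied together from tumor to tumor. Ptgs1 ran against Hpgd (Pearson r of log2 CPM over 12 tumors -0.86, and -0.85 over the 10), against Alox5 (-0.86 and -0.68) and against Ptgs2 (-0.63 and -0.32). Ptges and Hpgd had r = 0.82 (0.66 over the 10), and Alox5 and Ptgs2 had r = 0.73 (0.44 over the 10). The relations of Alox5 and Ptgs2 were thus weaker without plus-dox tumor 2 and off-dox tumor 4, while that of Ptgs1 with Hpgd was close to its value with them. Lta4h had r between -0.40 and 0.33 with the others. These values describe 12 points that share libraries, groups and cell makeup, and carry no p.

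**Figure D4:**
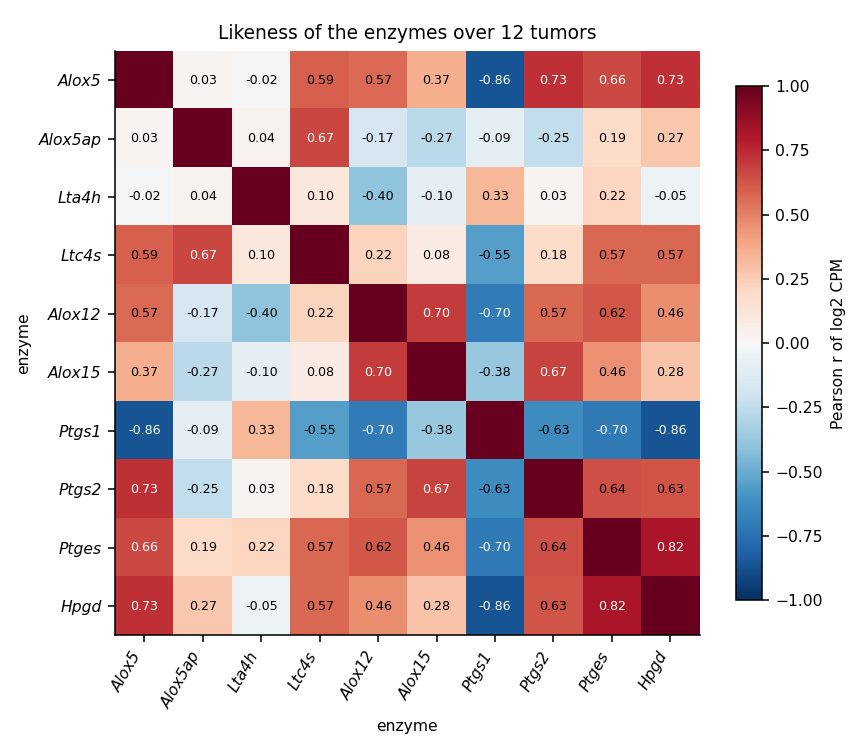
Pearson r of log2 CPM over the 12 tumors for each pair of the 10 genes, from -1 (blue) to 1 (red), with the value in each square. Ptgs1 is negative with 8 of the 9 other genes, down to -0.86 with Alox5 and Hpgd, and positive with Lta4h at 0.33.

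Markers of other cell types moved with this pattern. Endothelial markers, all 8 of 8 expressed and none at 0, summed to 38.5 to 60.7 (no-dox), 52.9 to 153 (plus-dox) and 47.7 to 69.2 RPKM (off-dox), and plus-dox tumor 2 held the 153. Fibroblast markers, 8 of 8 expressed, summed to 1081 to 1960, 1541 to 3005 and 1270 to 1501 RPKM, with the 3005 in plus-dox tumor 2. Ptges had r = 0.87 with the fibroblast sum and 0.85 with the endothelial sum, Hpgd 0.80 and 0.82, and Ptgs2 0.67 and 0.79. Ptgs1 had r = -0.81 with the endothelial sum and 0.72 with the simple epithelium sum. Over the 10 tumors r with the fibroblast and endothelial sums was 0.80 and 0.76 for Ptges, 0.65 and 0.65 for Hpgd, and 0.46 and 0.58 for Ptgs2. For Ptgs1 it was -0.70 with the endothelial and 0.64 with the simple epithelium sum. Ptgs2 and the macrophage sum had r = -0.53 over the 12 and -0.65 over the 10. Neutrophil markers (7 of 8 found, 6 of those expressed) summed to 23.4 to 35.2 (no-dox), 34.2 to 57.5 (plus-dox) and 24.3 to 50.1 RPKM (off-dox), and mast cell markers (8 of 8) to 29.6 to 107, 33.0 to 147 and 27.1 to 60.8. The part of any cell type in the values above was not tested.

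For each gene with a mean over 0.25 RPKM, the 3 genes with the most similar pattern over the 12 tumors were found by Pearson r of log2 CPM. Ptgs2 was most like Wt1 (0.96), Itgb3 (0.95) and Tbx3 (0.94), a transcription factor, an integrin subunit and another transcription factor. Ptges was most like Htra3 (0.96), a secreted protease, Plvap (0.95), a protein of endothelial pores, and Rcn3 (0.93), a protein of the endoplasmic reticulum. Hpgd was most like Has1 (0.93), a hyaluronan synthase, Tnfaip6 (0.90), a hyaluronan-binding protein, and Calcrl (0.89), a peptide hormone receptor. Alox5ap was most like Mrgprf (0.90), Fcgrt (0.90) and Dpt (0.89), the latter pair encoding the neonatal Fc receptor and the matrix protein dermatopontin. Ltc4s was most like Cbr2 (0.89), Fxyd2 (0.89) and Ubtd2 (0.87), and Lta4h like Cbara1 (0.94), Med19 (0.93) and Agpat6 (0.93). The patterns closest to Alox5 were Agpat5 (0.98), Fhl3 (0.96) and Obfc2a (0.95), and those closest to Ptgs1 were Fam167a, Slc35c1 and Xpc (0.97 each). With rank correlation in place of Pearson r, 0 or 1 of these 3 remained for 7 of the 8 genes, and without plus-dox tumor 2 and off-dox tumor 4 for 6 of the 8. Which 3 genes are named therefore depended on the measure and on these 2 tumors.

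The other genes of the pathway give the setting. Of 60 listed genes 58 were in the table and 53 were tested. None was called for plus-dox against no-dox or for off-dox against plus-dox, and 1 of the 53 was called for off-dox against no-dox, beside 1.34% of all genes. This was Ptger3, a prostaglandin E2 receptor, with 9.85, 4.76, 4.82 and 11.9 RPKM in no-dox tumors, 8.07, 1.69, 4.10 and 7.94 in plus-dox tumors and 2.55, 2.57, 2.52 and 1.36 in off-dox tumors. All off-dox tumors lay below all no-dox tumors, with a log2 fold change of -1.78 (SE 0.46, edgeR, adjusted p = 0.091), while plus-dox tumors overlapped both groups. The call of Ptger3 was lost in 9 of 12 fits that each left out 1 tumor, in which its adjusted p ran from 0.0692 to 0.22 and its log2 fold change from -1.97 to -1.48. Cmklr1, a receptor for chemerin and resolvin E1, was higher in 4 of 4 off-dox than in all no-dox tumors, at 9.93 ± 0.44 against 7.68 ± 0.80 RPKM, with a log2 fold change of 0.40 (SE 0.10, adjusted p = 0.087) that stayed under 1.5-fold and so was not called.

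Upstream of the 10 genes, the phospholipase that supplies arachidonic acid, Pla2g4a, was at 37.0 ± 3.36 RPKM in no-dox tumors, 30.3 ± 2.41 in plus-dox tumors and 28.8 ± 5.36 in off-dox tumors and was not called (edgeR, adjusted p = 0.36 for plus-dox and 0.17 for off-dox against no-dox). Its plus-dox tumors lay below all no-dox tumors in RPKM, by a narrow margin (33.8 against 33.9 in tumor 1 of each). In log2 CPM these groups overlapped. The platelet-activating factor hydrolase Pla2g7 was at 49.8 ± 14.4 RPKM over the 12 tumors. Of the other prostanoid synthases, Ptges3 (69.3 ± 4.97 RPKM) and Akr1b3 (68.7 ± 10.6) were the most abundant, each far above Ptges. Akr1b3, an aldo-keto reductase with prostaglandin F synthase activity, was at 78.5 ± 9.30 RPKM without dox and 61.3 ± 4.34 in off-dox tumors. Its log2 difference between these groups was -0.32 (SE 0.11, edgeR, adjusted p = 0.14). They did not overlap in RPKM, by a narrow margin (64.8 in off-dox tumor 1 against 65.4 in no-dox tumor 4). Such a separation, lower in off-dox, was seen for 6.4% of all genes. In log2 CPM the groups overlapped, with off-dox tumor 4 (6.127) above no-dox tumor 4 (6.123). Mgst3 (109 ± 31.1 RPKM) and Mgst2 (26.2, range 15.6 to 39.2), relatives of Ltc4s in the same enzyme family, both had higher means than Ltc4s.

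Among the receptors for prostaglandin E2, Ptger1 (10.7 ± 1.92 RPKM) and Ptger4 (6.40 ± 1.59) were the most abundant over the 12 tumors, with Ptger3 at 5.18 ± 3.47. In the list of receptors for leukotrienes, lipoxins and resolvins the most abundant were Cmklr1 (8.94 ± 1.19) and Cysltr1 (7.82 ± 2.27), the receptor for leukotriene D4. The transporters Abcc1 (13.8 ± 3.08) and Abcc4 (11.9 ± 2.68), which export leukotriene C4 and prostaglandin E2 respectively, were not called in any comparison. The remaining lipoxygenases were all low, with Alox8 at 0.314 ± 0.103 RPKM and Alox12e at 0.129 ± 0.105. For plus-dox against no-dox, the median log2 fold change was -0.28 for the 15 phospholipases tested, -0.08 for 8 synthases and -0.35 for 9 genes of leukotriene conjugation and breakdown. It was 0.62 for 3 lipoxygenases, 0.20 for 3 transporters, 0.39 for 9 prostanoid receptors and 0.24 for 6 receptors for leukotrienes, lipoxins and resolvins, beside 0.01 over all genes tested.

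**Figure D5:**
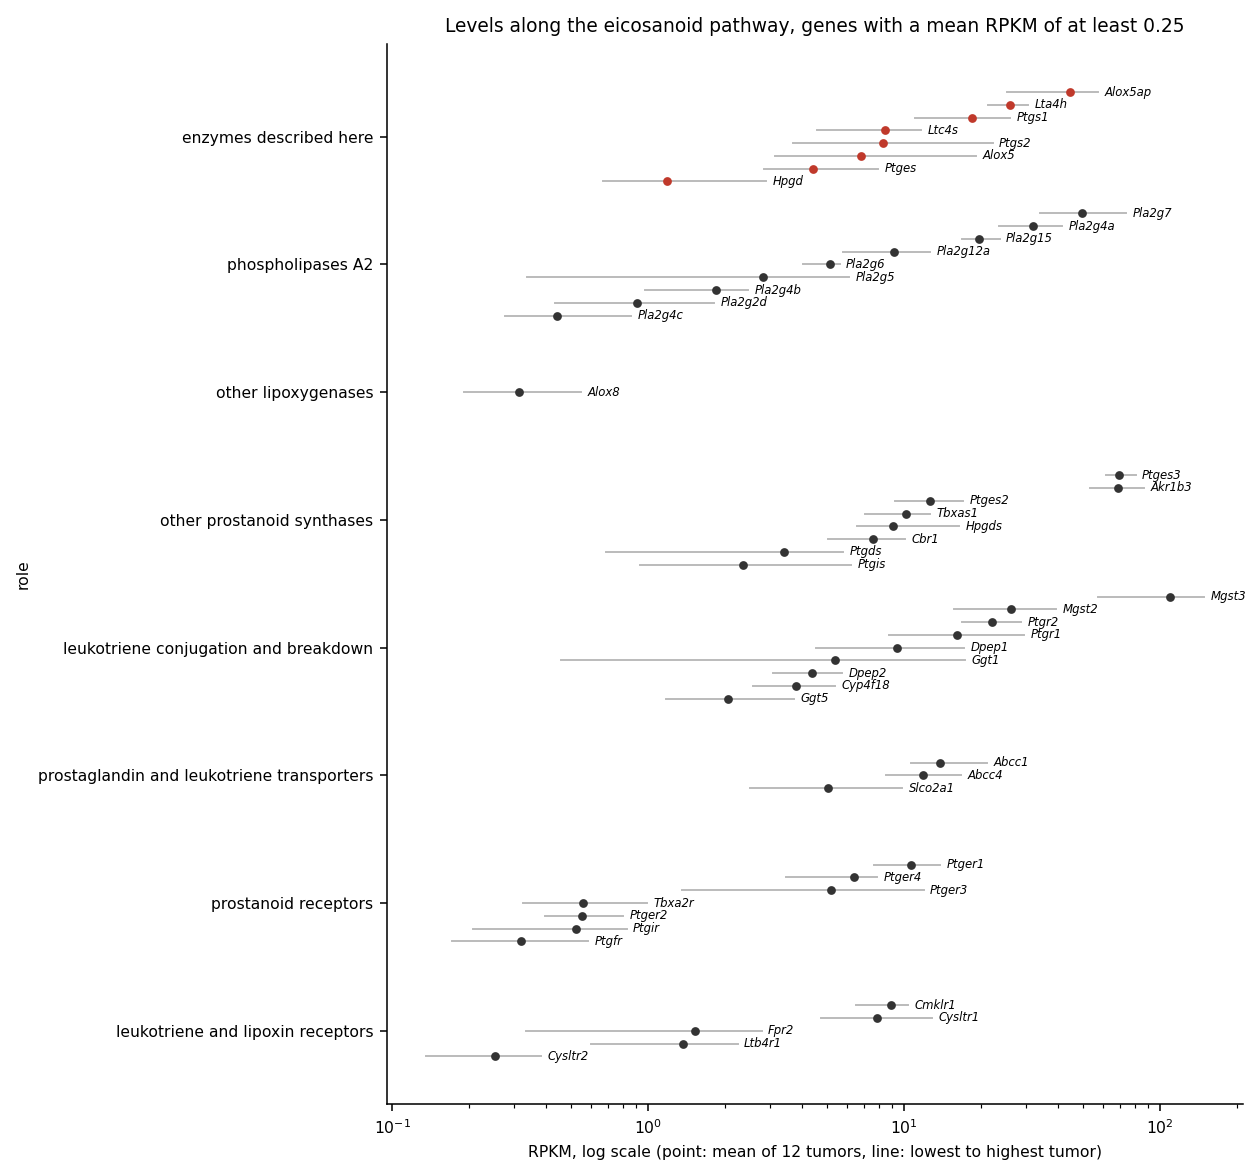
Mean RPKM over the 12 tumors (point, log axis) with the lowest and highest tumor (line) for the genes described here (red) and other pathway genes (black) by role, for genes with a mean of at least 0.25 RPKM. Alox12 and Alox15 are under that limit and not drawn; Alox5ap at 44.4 RPKM is the highest of the red points.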

How the data were processed

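The deposited files hold, for 12 tumors, an expected count per gene, which the authors made from the read coverage of unambiguous exonic spans of RefSeq genes on mm9 and which need not be whole. They also hold RPKM, which the authors scaled to exonic length and to all mapped reads. The submitters' processing notes name TopHat 1.4.1, Bowtie 0.12.8, CASAVA 1.8.2 and bedtools 2.16.2. Libraries were not strand specific, and the treatment of duplicate and multiply mapping reads is not given in the sources used here.

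Counts were rounded and genes whose 12 tumors together had 10 or more counts were tested in edgeR 4.0.16 (quasi-likelihood test, TMM, 1 fit of the 3 groups, all 17561 genes, Benjamini-Hochberg adjustment). A gene was called at an adjusted p under 0.1, over 1.5-fold change, a mean over 0.25 RPKM in the compared groups and an exonic length over 250 bp, the limits of the study's methods. The study used DESeq2, which was run here (1.42.0) as an alternative. A positive log2 fold change means higher in the group named first. Log2 CPM used TMM factors and a prior count of 2. The fit was tested on simulated data. Counts of 2 tumors of a group differed by more than counting error, so none was the same library deposited again, and each tumor counted as 1 replicate. No source says whether replicates came from separate mice.

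The members and lists were chosen with earlier results of these data known. The genes named were the 10, the 2 most abundant of each pathway list, any pathway gene called, the 3 most similar to each of the 10 with a mean over 0.25 RPKM, and Trp53. Markers and pathway genes were matched by symbol, using the older names Gpr44, Emr1 and Siglec5. The alternatives were DESeq2 (moderated fold changes or not), RLE normalization, other count filters, a fit of the 8 tumors compared, an adjusted p under 0.05, a replicate block, each tumor left out, and plus-dox tumor 2 and off-dox tumor 4 left out together. Tools were R 4.3.3, Python 3.11.15, numpy 2.4.6, scipy 1.17.1 and pandas 2.3.3. Another allele of the injected line is not reported here.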

Additional observations from a re-analysis of the deposited data

Results flagged for a closer look

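In 3 of 30 groups of 4 tumors, a single tumor lay far from the other 3 of its group by Dixon's ratio, which chance gives for about 1 group in 20. Alox5 in plus-dox tumor 2 was at 19.1 RPKM while the other plus-dox tumors lay between 4.19 and 5.47 (ratio 0.914). Alox12 in off-dox tumor 4 was at 0.245 RPKM while the others lay between 0.117 and 0.123 (ratio 0.957), a difference that rests on 22 against about 9 expected counts. Hpgd in no-dox tumor 3 was at 1.88 RPKM while the other no-dox tumors lay between 0.665 and 0.686 (ratio 0.983). In the last tumor Ptgs1 had its lowest value of the no-dox group, 14.1 RPKM, and Ptgs2 its highest, 7.45 RPKM. No cause of these values was tested.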

How the results depend on the processing

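Of the 30 log2 fold changes of the 10 genes (3 comparisons), 22 kept their sign in every alternative, and 0 of the 9 genes other than Alox15 were called in any alternative. Lta4h in off-dox against no-dox had an adjusted p under 0.1 in DESeq2 (0.035 moderated, 0.033 not) but stayed under 1.5-fold. The same held in edgeR with 10 counts in every tumor (adjusted p = 0.095) and without off-dox tumor 1 (0.098). With DESeq2 the count over all 10 was 1 for plus-dox against no-dox, which was Alox15, and nothing is read from it since that gene was chosen for this difference. Without plus-dox tumor 2 and off-dox tumor 4 together, the log2 fold change turned to -0.15 for Alox5 and -0.15 for Ltc4s in plus-dox against no-dox, to -0.076 for Hpgd in off-dox against no-dox, and to 0.18 for Alox5 and 0.0044 for Alox5ap in off-dox against plus-dox. The replicate block turned Ltc4s in plus-dox against no-dox to -0.0014 and changed no call among the 10. Same-numbered tumors of different groups were not more alike than others. Their deviations had r between -0.45 and 0.57 (mean -0.088 over 12 pairs). Tumors of different numbers had -0.68 to 0.67 (mean 0.043 over 36 pairs). Ranges this wide cannot exclude a pairing, and the check says nothing about tumors of 1 group that shared a mouse. Leaving out 1 tumor at a time, the values that changed sign ran from -0.15 to 0.91 for Alox5, -0.18 to 0.012 for Alox5ap and -0.14 to 0.16 for Ltc4s in plus-dox against no-dox, from -0.13 to 0.58 for Hpgd in off-dox against no-dox, and from -0.63 to 0.44 for Alox5, -0.50 to 0.036 for Alox12 and -0.079 to 0.19 for Ptgs1 in off-dox against plus-dox. The call of Ptger3, followed after it was seen, was also lost without a count filter (adjusted p = 0.10), in the 8 tumors compared (0.14) and with the replicate block (0.15), and DESeq2 kept it. In log2 CPM in place of RPKM, 1 of the 10 genes instead of 2 had groups without overlap for plus-dox against no-dox. Over all genes, the calls for off-dox against no-dox were 235 as reported, 396 or 615 with DESeq2, 122 without a count filter, 365 with 10 counts in every tumor, 3 in the 8 tumors compared, 0 with the replicate block or at an adjusted p under 0.05, 471 without both tumors, and 0 to 789 leaving out 1 tumor. DESeq2 called 90 or 128 genes for plus-dox against no-dox and 4 or 6 for off-dox against plus-dox, where edgeR called 0. Depth limits Alox12 and Alox15, which rest on 4 to 64.8 expected counts per tumor, and 4 tumors per group limit the genes that vary most, Ptgs2 and Alox5.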
